A study of Rattus norvegicus with 12 samples.

Results

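The probes described here are the circular RNA probes of the array whose sequence is shared with no other probe. The array carried 60148 different probes of 60 bases, of which 3046 had names beginning with RNO_CIRCpedia and 57102 had names beginning with rclstr. A CIRCpedia probe was a member if no run of 20 or more bases on the same strand also occurred in a probe of another name. This held for 1672 probes, 54.9% of the CIRCpedia probes, each with a CIRCpedia number of its own and a single spot on the array. The other 1374 shared such a run with rclstr probes (277), with other CIRCpedia probes (938) or with both (159).

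RNA from the brain of male rats was measured on 12 one-colour Agilent arrays in 3 groups of 4. The control samples are labelled normal brain. The model samples come from rats 7 days into a middle cerebral artery embolization model of stroke, and the BHD samples from such rats, also at 7 days, that had received Buyang Huanwu Decoction (BHD), a herbal preparation. The tissue field reads brain but the descriptions of 10 samples name hippocampus, and the design text of the series applies the ischaemia to all groups although the controls are labelled normal. The field for the strain reads male, and no dose or age is given in the sources used here. Most replicates are labelled biological, but no label says which rat each came from. Every p-value therefore reflects only how far these samples lie apart. No file used here pairs a probe with a gene, so neither the tissue nor any circular RNA's host gene could be checked against marker genes, and probes are named by their identifiers.

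Circular RNAs form when the end of an exon is spliced back to the start of the same or an earlier exon, which closes the RNA into a ring with no free ends and no poly(A) tail. They are abundant in the brain, accumulate at synapses and turn over slowly because exonucleases find no end to start from. Only the back-splice junction, the seam between both exon ends, distinguishes a circular RNA from the linear transcript of its gene, so a probe for the circle is laid across that seam. A probe with most of its bases on 1 side of the seam can still pair with the linear transcript. RNA was primed here with an oligo-dT primer, per the labels' protocols, so labelled RNA need not be circular.

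The junction is named in no file and was inferred from the sequences. Exons often end in AG. For each of the 17 values, from 0 to 16, of the second number in the names, AG was most frequent at 1 position, ending at base 45 minus that number. At that position 48.1% to 74.5% of members had AG, against at most 22.0% at any other position of the same members. Over all 1672 members AG stood just before the inferred junction in 958 (57.3%), while 8.07% of the other pairs of neighbouring bases were AG. G followed the junction in 43.7%, and G made up 23.4% of all member bases. The run of AG then G across the junction occurred in 410 members (24.5%). Between 29 and 45 bases lay before the junction, with 45 before and 15 after it in 366 members and 29 before and 31 after it in 279.

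Sequences follow for members described below, with the 4 bases on either side of the inferred junction in capitals. The first pair had the highest signal in normal brain.
RNO_CIRCpedia_4559_0_12: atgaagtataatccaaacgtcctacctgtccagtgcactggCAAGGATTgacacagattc
RNO_CIRCpedia_2212_9_16: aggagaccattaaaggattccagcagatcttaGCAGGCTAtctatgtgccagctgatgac
The next pair varied most among the normal brains.
RNO_CIRCpedia_6306_4_22: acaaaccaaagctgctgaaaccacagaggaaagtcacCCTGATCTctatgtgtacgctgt
RNO_CIRCpedia_3290_12_14: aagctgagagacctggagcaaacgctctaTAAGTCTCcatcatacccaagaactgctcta
The next members changed with BHD. The first 4 rose and the other 2 fell.
RNO_CIRCpedia_5589_15_13: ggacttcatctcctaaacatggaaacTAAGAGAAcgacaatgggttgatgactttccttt
RNO_CIRCpedia_6352_15_19: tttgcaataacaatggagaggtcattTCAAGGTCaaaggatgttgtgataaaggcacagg
RNO_CIRCpedia_4842_16_14: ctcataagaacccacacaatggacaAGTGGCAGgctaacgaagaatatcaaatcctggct
RNO_CIRCpedia_9399_14_16: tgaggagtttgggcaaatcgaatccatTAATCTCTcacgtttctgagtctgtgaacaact
RNO_CIRCpedia_8274_12_7: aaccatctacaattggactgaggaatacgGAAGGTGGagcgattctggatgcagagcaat
RNO_CIRCpedia_9914_15_32: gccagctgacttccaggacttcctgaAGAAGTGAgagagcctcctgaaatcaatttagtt
These 4 rising members have 29 to 31 bases on each side of the junction, whereas of the falling ones RNO_CIRCpedia_8274_12_7 has 33 before and 27 after it, and RNO_CIRCpedia_9914_15_32 has 30 on each side. GC content was narrow over all members, from 40% to 46.7% with a median of 45%.

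The depth of an array is its signal over background. Between 1578 (94.4%, model replicate 2) and 1624 (97.1%, BHD replicate 1) members were well above background on an array, against 73.2% to 77.3% of all probes. Levels are given as log2 of the processed signal minus the array's 75th percentile over all probes, so that 0 marks that percentile, which lay between 397 and 452 signal units. Across the members tested, 2 arrays of the same group correlated at r = 0.9869 to 0.9946 and 2 arrays of different groups at 0.9831 to 0.993, a description over probes and not over replicates. BHD replicate 2 stood apart, being the array of its group farthest from the group mean for 45.2% of members, against 13.5% to 31.5% for the other arrays. Control and model arrays lay in different array rows of slide 1 and all BHD arrays on slide 2, so group and position on a slide cannot be told apart.

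In normal brain 1588 of the 1672 members (95%) were well above background on all 4 control arrays, 43 on 1 to 3 of them and 41 on none. The share was 94.8% for the other CIRCpedia probes and 71.5% for rclstr probes. Over all 12 arrays, 1567 members (93.7%) were well above background on every one and 27 (1.61%) on none. Among the 1588, the mean control level ran from -5.40 to 7.62 with a median of -1.0 and quartiles of -2.22 and 0.26. In signal units the 5th percentile was 26.1, the median 206 and the 95th percentile 2180, an 84.1-fold range between the 5th and 95th percentiles. The same range was 86.1-fold in the other CIRCpedia probes and 568-fold in the rclstr probes, so CIRCpedia probes spanned a narrower range of signals than the rest of the array. A mean control level above the 75th percentile of the array was found for 27.9% of all members. A probe's signal depends on its sequence as well as on its RNA, so these ranges describe signals and do not rank circular RNAs.

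The highest control levels belonged to RNO_CIRCpedia_4559_0_12, at 7.75, 7.66, 7.50 and 7.55 on the 4 arrays. Its mean signal was 81300 units. Its level was 7.68 ± 0.05 in the model and 7.63 ± 0.07 with BHD (SD, n = 4), so the groups overlapped. RNO_CIRCpedia_2212_9_16 followed in the control samples at 7.25, 7.14, 7.07 and 7.18, and stayed at 7.21 ± 0.09 in the model and 7.15 ± 0.09 with BHD (SD, n = 4). At the other end RNO_CIRCpedia_6649_16_15 was at -5.45, -5.65, -5.03 and -5.48 in normal brain, well above background on all 4 control arrays and on 3 of 4 model arrays. RNO_CIRCpedia_6618_16_22 was at -5.66, -5.22, -5.29 and -5.22 in normal brain but well above background on only 1 model array and 3 BHD arrays. The dimmest members therefore sat at the detection limit.

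The level of a member went with where its junction lay. The median control level of tested members was -1.87 with 29 to 30 bases before the junction (315 members), -1.23 with 31 to 35 (332), -0.99 with 36 to 41 (372) and -0.62 with 42 to 45 (579). In the same order 90.2%, 93.2%, 96.4% and 98.0% of members were well above background on all 4 control arrays. Members with their bases split evenly over the junction were thus dimmer than members with 42 to 45 bases before and 15 to 18 after it. The median level was -1.35 at 40% GC, between -1.19 and -1.13 at 41.7% to 45%, and -0.86 at 46.7%. These are descriptions of probe signals, and the part of linear transcripts or of base composition in them was not tested.

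Replicate normal brains were close. Over the 1567 members well above background on all arrays, the SD among the 4 samples had a median of 0.108 log2 units in control (quartiles 0.071 and 0.164), 0.128 in the model and 0.135 with BHD. Such an SD equals a factor of 1.08, 1.09 and 1.1. The spread shrank with signal. To show this, the probes that cleared background on every array, members or not, were divided by mean level into 4 equal parts. From the dimmest part to the brightest, the median control SD of members fell from 0.192 to 0.125, 0.085 and 0.080. The parts held 241, 553, 524 and 249 members and differ from the level classes of tested probes used further below. Members varied like the other CIRCpedia probes (0.105 in control), and rclstr probes had 0.134. As a gauge of the arrays themselves, 104 rclstr probes were printed in 10 or more spots. Their median SD was 0.056 between spots of 1 array, and that of their spot averages was 0.099 between control arrays. Members have a single spot, so the latter value is not on the same footing as theirs.

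A few members departed from this. The control SD was over 1 in 2 members, the model SD in 4 and the BHD SD in 1. RNO_CIRCpedia_6306_4_22 was at -0.01, 0.27, -3.41 and -0.74 in control, at -0.86, -0.19, -3.36 and -2.91 in the model, and at -3.24, 0.51, 0.54 and -2.93 with BHD. Each group held both samples near 0 and samples near -3, so the groups overlapped completely. RNO_CIRCpedia_3290_12_14 was at -4.87, -2.77, -2.97 and -5.22 in control, at -2.48, -2.40, -4.95 and -4.68 in the model, and at -4.09, -4.56, -2.97 and -3.15 with BHD. It too had high and low samples within every group. Model replicates 3 and 4 were among the low samples of both probes. At the other extreme, RNO_CIRCpedia_9082_0_20 was at 0.53, 0.51, 0.51 and 0.53 in normal brain, an SD of 0.010, and RNO_CIRCpedia_3551_16_18 at -1.70, -1.68, -1.68 and -1.67, also an SD of 0.010. The latter sequence, given again under the BHD comparisons, was
RNO_CIRCpedia_3551_16_18: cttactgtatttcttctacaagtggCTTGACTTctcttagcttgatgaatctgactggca

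The first comparison asked whether the circular RNA probes differed 7 days after embolization from normal brain. To be tested, a probe had to exceed background clearly on all 4 arrays of some group, which 1598 members did (95.6%) and 74 did not. The limma fit covered all 44719 probes that passed, and a probe was called at a Benjamini-Hochberg adjusted p under 0.05. No member was called in either direction, with a smallest adjusted p of 0.0974 in limma, against 0.047% of all tested probes (0.0224% higher and 0.0246% lower). An unadjusted p under 0.05 was reached by 238 members (14.9%) against 17.6% of all. The 4 model and 4 control values did not overlap in 166 members (10.4%), 67 higher and 99 lower, against 11.7% of all. The median change of the members was -0.03, with quartiles of -0.14 and 0.07, and that of all tested probes 0.00. Neither count stood above the background.

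The sizes of change that were not called are as follows. RNO_CIRCpedia_1696_10_8 had the smallest adjusted p of all members. It was at -0.13, 0.00, 0.15 and 0.00 in control and at -0.24, -0.62, -0.88 and -0.72 in the model, a difference of -0.62 ± 0.13 (SE; adjusted p = 0.0974 in limma). The groups did not overlap, and without model replicate 1 the difference was -0.75 and was called (adjusted p = 0.0357 in limma), the 1 member called in that setting. RNO_CIRCpedia_8274_12_7 differed by -0.47 ± 0.10 (SE; adjusted p = 0.103 in limma). RNO_CIRCpedia_9194_0_19, a dim member, was at -4.53, -3.85, -4.04 and -4.11 in control and -3.73, -3.43, -3.60 and -3.59 in the model. Its difference was 0.55 ± 0.14 (SE; adjusted p = 0.12 in limma), and 0.16 with normexp correction. RNO_CIRCpedia_3930_0_15 differed by 0.34 ± 0.09 (SE; adjusted p = 0.131 in limma). The result depended on the scaling. Centring each array on its 8 E1A spike-in probes, which were lower in the model (13.3 to 13.4) than in control (13.5), called 53 members, 52 of them higher, and put the median change of all probes at 0.18. The members' median was then 0.14, below that of all probes. With it RNO_CIRCpedia_1696_10_8 (-0.45, adjusted p = 0.047), RNO_CIRCpedia_9194_0_19 (0.72, adjusted p = 0.0368) and RNO_CIRCpedia_3930_0_15 (0.51, adjusted p = 0.0396) were called in limma, and RNO_CIRCpedia_8274_12_7 (-0.30) was not.

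The second comparison asked what BHD changed in the embolized brain. Against the model, 41 of the 1598 tested members were called by limma (2.57%, against 3.19% of all 44719 tested probes). Of these members 30 were higher and 11 lower, while of all tested probes 309 (0.691%) were higher and 1119 (2.5%) lower. Of the members' calls 73.2% were thus higher, whereas 21.6% of all calls were. The median absolute change of the called members was 0.50. Values of BHD and model arrays did not overlap in 159 members (9.95%, against 10% of all), 91 higher and 68 lower. The median change was 0.02 in the members and -0.02 in all probes. The members were called about as often as all tested probes, and their calls ran the other way. Of the other CIRCpedia probes 45 were called higher and 11 lower (80.4% higher), so this direction was not particular to the members. With E1A centring the calls were 23 higher and 21 lower, and the members' median turned to -0.05. Counts fell to 20 without model replicate 1, 20 without model replicate 2, 27 without model replicate 4, 17 without BHD replicate 1 and 19 without BHD replicate 3. Arrays of the same replicate number lay in the same array column of their slides, and with that number as a block 25 members were called, 19 higher and 6 lower. Without BHD replicate 2, the array that stood apart, 24 members were called higher and 10 lower and the members' median was -0.01.

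The clearest rise was that of RNO_CIRCpedia_5589_15_13, the member with 30 bases on each side of its junction shown above. It was at -2.63, -2.99, -2.65 and -2.68 in the model and at -1.85, -2.01, -1.85 and -1.98 with BHD. Every BHD value lay above every model value. The change was 0.82 ± 0.09 (SE), a 1.76-fold rise with an adjusted p of 0.0016 in limma. With normexp background correction it was 0.46, still called. Its control level was -2.75 ± 0.05 (SD, n = 4), close to the model. RNO_CIRCpedia_6352_15_19 was at -2.92, -2.92, -2.56 and -2.68 in the model and -1.86, -2.12, -1.87 and -1.98 with BHD, again without overlap, a change of 0.81 ± 0.11 (SE; adjusted p = 0.00416 in limma), which normexp correction also brought to 0.46. RNO_CIRCpedia_9914_15_32 fell by 0.67 ± 0.13 (SE; adjusted p = 0.0188 in limma), from -1.22, -1.03, -1.20 and -1.64 to -1.97, -1.73, -1.98 and -2.10, without overlap. Its call was lost without model replicate 1, 2 or 3, without BHD replicate 1 or 3, and with only both groups in the fit, where adjusted p in limma ranged from 0.0501 to 0.0563.

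The rises with BHD were concentrated in members whose junction lay near the middle of the probe. Of the 315 tested members with 29 to 30 bases before the junction, 21 were called higher and 1 lower (6.98%). Of the 579 with 42 to 45 bases before it, none was called higher and 3 lower (0.518%). The groups between had 6 higher and 2 lower of 332, and 3 higher and 5 lower of 372. Of all tested probes 3.19% were called, 0.691% higher and 2.5% lower. The median change ran from 0.105 through 0.043 and -0.010 to -0.014 in the same order. The share of members with a positive change was 71.4% with 29 to 30 bases and 46.8% with 42 to 45. No test was made of this gradient, because members are not replicates.

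Evenly split members were dimmer, so the values are also given by level. For this, all tested probes were split into 4 equal classes by their mean level. Within level class 1 of the tested probes, the dimmest, the median change was 0.209 in 73 members with 29 to 30 bases before the junction and 0.007 in 34 with 42 to 45, whose median levels also differed, at -4.07 and -3.72. In class 2 the medians were 0.131 (124 members) and 0.001 (160), and in class 3 they were 0.052 (91) and -0.011 (240). In class 4, the brightest, they were -0.029 (27) and -0.039 (145). The part of signal level in the gradient was not tested. The 1317 tested CIRCpedia probes that share sequence gave the same picture on the same arrays, with 33 higher and 3 lower of 416 at 29 to 30 bases, a median of 0.138, and 0 higher and 1 lower of 269 at 42 to 45, a median of -0.015.

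Array by array, the median over the 315 evenly split members of their deviation from their own mean was -0.053, -0.012, 0.024 and 0.003 in control. It was -0.015, -0.029, -0.088 and -0.060 in the model and 0.025, 0.157, 0.046 and 0.005 with BHD. All BHD arrays lay above all model arrays, with BHD replicate 2 highest. For the 579 members with 42 to 45 bases before the junction the medians were -0.003, 0.017, 0.051 and 0.022 in control, 0.019, 0.036, -0.026 and -0.028 in the model and -0.039, 0.062, -0.033 and -0.058 with BHD, and BHD and model overlapped. In level class 1 the 188 tested members were at 0.058, 0.118, 0.068 and 0.034 with BHD against -0.081, -0.108, -0.136 and 0.024 in the model. The rclstr probes of that class were at -0.049, 0.017, -0.220 and -0.077 with BHD against 0.048, -0.022, 0.011 and 0.122 in the model. Among tested probes, dim members were thus higher with BHD where dim rclstr probes were mostly lower. Of the 1598 tested members, 1590 passed the filter on model or control arrays, and the rest entered through the BHD arrays alone. With only probes well above background on all arrays, the median change of evenly split members was 0.096, with 20 higher and 1 lower calls of 304. No such value is given for level class 1. Without BHD replicate 2 the median of the evenly split members was 0.078, with 17 higher and 1 lower call, and that of members with 42 to 45 bases -0.036. With E1A centring these medians were 0.034 (15 higher and 4 lower calls) and -0.085 (0 higher and 7 lower). Higher calls among evenly split members dropped to 13 without model replicate 1, 13 without model replicate 2, 11 without model replicate 4, 11 without BHD replicate 1 and 13 without BHD replicate 3, and their median stayed between 0.078 and 0.138 when any 1 array was left out.

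GC content moved with the change as well. At 40% GC, 12 members were called higher with BHD than in the model and 0 lower of 229 (5.24%), with a median change of 0.042. At 46.7% GC, 3 were higher and 6 lower of 749 (1.2%), with a median of 0.000. Of all tested probes 3.19% were called. No such split by GC is given for other probes, so it cannot be called particular to the members. The part of GC content and of the reach of the linear transcript in the rises was not tested. All BHD arrays lay on a slide of their own, so slide and BHD cannot be told apart.

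The third comparison set BHD against normal brain. Limma called 125 of the 1598 tested members (7.82%, against 10.7% of all 44719 tested probes). Of these members 60 were higher and 65 lower, while of all tested probes 1722 (3.85%) were higher and 3080 (6.89%) lower. Higher calls made up 48.0% of the members' calls, 57.6% of those of the other CIRCpedia probes and 35.9% of all. Values of BHD and control arrays did not overlap in 288 members (18.0%, against 18.6% of all), 137 higher and 151 lower. The median change was -0.01 in the members, that of all probes -0.03, and the median absolute change of called members 0.43. With both directions counted, members were called less often than the background. Quantile normalization gave 91 higher and 61 lower, the deposited values 90 and 61, and E1A centring 116 and 22 with a members' median of 0.09 and a median of all probes of 0.07. Without single arrays the count was 83, 67, 63 and 72 for control replicates 1 to 4, 69 for BHD replicate 1, 58 for BHD replicate 3 and 82 for BHD replicate 4. Without BHD replicate 2 it was 154, with 56 higher and 98 lower.

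RNO_CIRCpedia_4842_16_14 had the largest called rise among members well above background on all arrays of both groups. It was at -0.32, -0.39, -0.42 and -0.39 in control and at 0.53, 0.41, 0.71 and 0.64 with BHD, a rise of 0.95 ± 0.14 (SE) or 1.94-fold, with an adjusted p of 0.00385 in limma. Model values of -0.26, 0.00, 0.40 and -0.35 spread from the control level nearly up to the BHD level. RNO_CIRCpedia_9399_14_16, a dim member, was at -5.10, -4.85, -5.18 and -4.93 in control and -4.25, -4.03, -3.91 and -4.31 with BHD, a change of 0.89 ± 0.15 (SE; adjusted p = 0.00555 in limma). With normexp background correction its change shrank to 0.18 and the call was lost (adjusted p = 0.059 in limma). Among the falls, RNO_CIRCpedia_8274_12_7 was at -1.56, -1.36, -1.25 and -1.31 in control and -2.11, -2.43, -2.26 and -1.98 with BHD. Its change was -0.83 ± 0.10 (SE; adjusted p = 0.00184 in limma), and -0.54 with normexp correction and quantile normalization. The model values, -1.82, -1.74, -1.91 and -1.87, lay between both groups without overlapping either.

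By position of the junction, the calls divided as follows. With 29 to 30 bases before the junction 28 members were higher and 10 lower (12.1%), a median change of 0.065. With 42 to 45 bases 5 were higher and 30 lower (6.04%), a median of -0.043. Of all tested probes 10.7% were called. The other CIRCpedia probes divided alike, with 46 higher and 14 lower of 416 at 29 to 30 bases and 6 higher and 17 lower of 269 at 42 to 45. Without BHD replicate 2 the first median of the members was 0.036 and the second -0.066. With E1A centring the medians were 0.167 (50 higher and 3 lower calls) and 0.059 (19 higher and 6 lower), so the direction of the second depended on the scaling. Quantile normalization gave 46 higher and 8 lower calls at 29 to 30 bases. At 29 to 30 bases, higher calls fell to 15 without BHD replicate 3, and lower calls to between 1 and 5 without control replicate 2, 3 or 4 or BHD replicate 1, 3 or 4. Lower calls at 42 to 45 bases were between 9 and 15 when any control array or BHD replicate 1, 3 or 4 was left out, and 45 without BHD replicate 2. Members of level class 4 held 4 higher and 21 lower calls (8.62%, against 8.06% of all tested probes of that class), and those of class 1 held 4 higher and 3 lower (3.72%, against 12.5%).

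The comparisons with BHD share the BHD arrays, so their calls are given side by side only. The same patterns are not given over all tested probes, so these counts cannot be set against the background. Called higher against both model and control were 21 members, and 9 were lower against both. Against the model alone 9 were higher and 2 lower, and against control alone 39 were higher and 56 lower, which does not show that the changes differ. RNO_CIRCpedia_3551_16_18, with 29 bases before its junction, was named for its control SD of 0.010, so its change is given without a test. It was at -1.76, -1.69, -1.63 and -1.70 in the model and at -1.45, -1.48, -1.29 and -1.37 with BHD, where all 4 values lay above those of both other groups.

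Changes past 2-fold were rare. Between model and control 0.0626% of tested members passed it, against 1.45% of all tested probes. The shares were 0.188% against 1.21% for BHD and model, and 0.188% against 2.37% for BHD and control. The members past 2-fold are named here because of their size, seen in these data. In 5 members the fitted change exceeded 2-fold in some comparison. RNO_CIRCpedia_5625_1_12 was at -1.67, -1.93, -1.95 and -2.08 in control, at -0.94, -0.55, -0.66 and 1.49 in the model and at 0.38, -1.65, -0.36 and 0.34 with BHD. All model and BHD samples lay above control, yet with a model SD of 1.11 the difference of 1.74 ± 0.54 (SE) was not called (adjusted p = 0.158 in limma). RNO_CIRCpedia_5251_2_18 differed by -1.03 between BHD and control, also not called (adjusted p = 0.0663 in limma), and its control values of -3.65, -3.01, -4.66 and -4.64 were spread. The other 3 were near the detection limit. RNO_CIRCpedia_2356_16_14 was higher with BHD than in the model by 1.06 ± 0.25 (SE; adjusted p = 0.0441 in limma), with 3 of 4 model arrays well above background. RNO_CIRCpedia_8135_8_24 was lower with BHD by 1.07 against the model (adjusted p = 0.0279 in limma) and by 1.00 against control (adjusted p = 0.019 in limma), and only 1 BHD array was well above background. RNO_CIRCpedia_8809_14_13 was well above background on all 4 BHD arrays, at -4.46, -4.70, -5.18 and -4.98, on no model array and on 2 control arrays. It was the only member whose detection switched between model and BHD (0.0598% of members, against 0.218% of other CIRCpedia and 0.13% of rclstr probes). Its rise was at least 1.72-fold, a bound against the lowest signal well above background on each model array. This member passed the filter only through the BHD arrays, where it was high, so no test result is given for it.

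Circular RNAs can bind microRNAs through sites matching the seed, bases 2 to 8 of the mature microRNA. The title of the series names a network of circular RNAs and microRNAs, so the members were searched, on the printed strand only, for sites of 4 microRNAs of the brain. Mature sequences are from RefSeq (GRCr8), with the seed in capitals.
rno-miR-7a-5p: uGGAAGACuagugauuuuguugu
rno-miR-9a-5p: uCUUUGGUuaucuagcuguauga
rno-miR-138-5p: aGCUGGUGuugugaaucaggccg
rno-let-7a-5p: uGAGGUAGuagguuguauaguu
The site GTCTTCC for miR-7a-5p stood in 14 members (0.837%, against 0.519% of all probes) and ACCAAAG for miR-9a-5p in 15 (0.897%, against 0.638%). CACCAGC for miR-138-5p stood in 9 (0.538%, against 0.407%) and CTACCTC for let-7a-5p in 5 (0.299%, against 0.429%). None of these sites lay across a junction. Of the 14 members with the miR-7a-5p site 2 were called between BHD and control, where 10.7% of all tested probes were, and no other member with any of these sites was called in any comparison. A probe covers only 60 bases of a circle, so these counts say nothing about sites elsewhere in it.

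The rule's threshold was not close to most members. The longest run shared with another probe was 12 to 19 bases, with a median of 14, and 29 members had exactly 19. Just inside, with a run of 19, RNO_CIRCpedia_2715_14_20 had mean levels of 0.66, 0.73 and 0.72 in control, model and BHD, and RNO_CIRCpedia_5088_6_18 of 0.43, 0.38 and 0.09. Just outside, with a run of 20, RNO_CIRCpedia_489_16_14 had 2.43, 2.35 and 2.35, and RNO_CIRCpedia_8924_2_18 had 1.98, 1.95 and 1.85. In bulk tissue, fewer cells of a type and less RNA per cell cannot be told apart in any of these values.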

How the data were processed

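The arrays were quantified in Agilent Feature Extraction, version 10.7.1.1 according to the submitters' processing notes. The scanner files hold spot intensity on a linear scale, already corrected for background and spatial trend per the file headers, as well as 0 or 1 flags that mark outliers, saturation and signal well above background, set per the file headers. The deposited value table holds log2 values made by the authors, which correlated with the scanner values at 0.9995 or higher and had the same median, 6.134, on every array. It was used as an alternative. Their normalization is not given in the sources used here.

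Outlier spots were left out, no spot was saturated, and spots of a probe were averaged after log2. The 75th percentile of each array was then taken off. The 44719 probes that exceeded background clearly (the scanner's flag) on all 4 arrays of some group were fitted with limma 3.58.1 in R 4.3.3, with 1 mean per group over 12 arrays and Benjamini-Hochberg adjustment over all of them. The procedure was tested on simulated data. Shared runs were found by comparing all probe sequences. The replicate number equals the array's column on its slide, per the file headers. Deviations of same-numbered arrays correlated between -0.194 and 0.243 and not above 0.1 in every pair, so samples were not taken as paired. BHD and model arrays correlated at -0.113, 0.243, 0.19 and 0.211.

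The members and lists were chosen with earlier results of these data known. The rule for named probes took the largest called rises and falls, at most 2 each per comparison, among members well above background on all arrays of both groups, the brightest and dimmest in control, and those with the largest and smallest control SD. Where no member was called, the 2 with the smallest unadjusted p in each direction were named. The members nearest the threshold of the rule were the brightest with a run of 19 or 20. A member that the rule named is not reported here. Gene and cell type lists could not be used, since no file pairs probes with genes. The number of arrays limits the precision.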

Additional observations from a re-analysis of the deposited data

Results flagged for a closer look

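In 3 of the members named by the rule above, 1 sample lay so far from the other 3 of its group that the gap passed Dixon's limit for 4 samples. RNO_CIRCpedia_5589_15_13 was at -2.990 in model replicate 2 and between -2.675 and -2.631 in the other model samples. RNO_CIRCpedia_6352_15_19 had a value of -2.809 for control replicate 3, with the other controls from -2.528 to -2.496. RNO_CIRCpedia_9082_0_20 was at 0.474 in model replicate 3 and between 0.560 and 0.566 in the others. Among the members past 2-fold, the limit was also passed by RNO_CIRCpedia_5625_1_12 and RNO_CIRCpedia_8135_8_24. The former was at 1.489 in model replicate 4 and between -0.935 and -0.552 in the other model samples. The latter, a called fall, was at -4.915 in BHD replicate 2 and between -5.861 and -5.731 in the other BHD samples. Chance alone flags about 1 in 20 groups, and over all 1598 tested members the share was 4.63% in control, 5.26% in the model and 4.88% with BHD. In BHD, 42 of the 78 such members had replicate 2 as the distant sample.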

How the results depend on the processing

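For the model against control, 0 members became 2 with normexp correction and quantile normalization, 53 with E1A centring, 1 at an adjusted p under 0.1 and 0 to 1 with an array left out. For BHD against the model, 41 became 63 with normexp and quantile normalization, 25 without a filter on dim probes, 20 with only both groups in the fit, 73 at an adjusted p under 0.1, 13 at under 0.01 and 17 to 39 with an array left out. With the replicate number as a block it was 25. For BHD against control, 125 became 246 at an adjusted p under 0.1, 29 at under 0.01 and 58 to 154 with an array left out, and the block gave 87. The causes were not tested. The members reported for the largest rises and falls kept their direction in the 23 settings run for each. Requiring unique runs of 25 bases gave 1817 members and 43 and 132 calls. Settings for members grouped by junction position were chosen after seeing the data. The limits are 4 arrays a group and the dimmest members at the detection limit.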
